A study of Mus musculus with 15 samples.

Results

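The 38 genes described here are known targets that the tumour suppressor p53 switches on, among them Mdm2, Ccng1, Zmat3 and Perp. They were listed by name as p53 targets and were read on probe sets annotated with that gene alone, taking for each gene the probe set with the highest mean over all 15 arrays. This gave values for 37 of the 38 genes, out of 19938 genes measured in the same way. Gdf15 was not analysed here, nor were Cdkn1a, Bax and Trp53 itself, which no probe set named alone.

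Epithelial cells from the mammary glands of female mice aged 8 weeks were grown in culture and profiled on microarrays while proliferating, in 5 groups of 3 arrays. By their labels, the p53- Rb- Myc+ cells lacked p53 and Rb and overexpressed MYC, and the p53- Myc+ cells lacked p53 and overexpressed MYC. The p53- Rb- cells are labelled as lacking both tumour suppressors, the p53- cells as lacking p53, and the WT cells as wild type for p53, Rb and MYC. Loss of p53 could not be checked here, as no probe set named Trp53 alone. The genes were deleted in culture by Cre recombinase delivered with an adenovirus, and MYC was brought in by a retrovirus, for which the labels name no promoter. The labels do not say whether WT cells received a control virus. They also do not say whether the 3 arrays of a group came from separate mice or cultures, so each p-value rests on a spread among arrays that may be technical only.

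p53 is a transcription factor that MDM2 keeps scarce in unstressed cells by marking it for destruction. DNA damage and oncogene activity stabilise it, and it then binds response elements near its target genes, whose products halt the cell cycle, start apoptosis, repair DNA, alter metabolism or feed back on p53. Cultured cells keep some p53 activity without added damage.

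Values are array intensities on a linear scale, and a log2 change is the difference between 2 group means of log2(intensity + 16), which understates the change of dim genes. Rb1 read 20.0, 18.3 and 17.9 in p53- Rb- Myc+ arrays and 48.0, 26.8 and 34.4 in p53- Myc+ arrays. It read 52.7, 55.3 and 64.2 in p53- Rb- arrays, 147, 181 and 157 in p53- arrays and 86.5, 88.1 and 104 in WT arrays. It was thus lower in each Rb- group than in the group with the same p53 and Myc labels. The p53- Rb- arrays lay below all WT arrays but above all p53- Rb- Myc+ arrays. Whether their signal was remaining Rb1 RNA or background was not tested. The p53- Myc+ arrays, labelled with intact Rb, also lay below all WT arrays and below all p53- Rb- arrays. The probe set of the mouse Myc gene read 87.1 to 108 in p53- Rb- Myc+ arrays and 108 to 162 in p53- Myc+ arrays, against 779 to 978 in p53- Rb- arrays, 841 to 1046 in p53- arrays and 846 to 940.1 in WT arrays. It did not show the added MYC. The summed intensity of 6 luminal epithelial markers was 568 to 654 in p53- Rb- Myc+ arrays and 123 to 194 in p53- Myc+ arrays, against 11783 to 12906 over the other 9 arrays. That of 5 basal epithelial markers was 1702 to 1924 in p53- Rb- Myc+ arrays and 2142 to 2500 in p53- Myc+ arrays. It was 8787 to 8964 in p53- Rb- arrays, 5720.2 to 6964 in p53- arrays and 8240 to 8561 in WT arrays. Most of the basal sum in Myc+ arrays was Acta2, smooth muscle actin, at 1668 to 1879 in p53- Rb- Myc+ arrays and 2097 to 2476 in p53- Myc+ arrays, against 1905 to 2118 in WT arrays. The basal keratin Krt14 read 16 to 29.7 in p53- Rb- Myc+ arrays and 1.60 to 17.7 in p53- Myc+ arrays, against 2168 to 2258 in WT arrays. Epcam, which marks epithelial cells, read 14, 8.88 and 11.8 in p53- Rb- Myc+ arrays and 5.74, 13.8 and 11.2 in p53- Myc+ arrays, against 1584, 1519.7 and 1776 in WT arrays. The arrays of both Myc+ groups therefore go against the labelled epithelial cell type at the level of these markers. Each comparison between groups with and without Myc+ carries this difference. As the arrays read whole cultures, fewer cells of a type and less RNA per cell cannot be told apart.

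Loss of p53 alone was examined by setting p53- cells against WT cells. Here 18 of the 37 members fell, 3 rose and 16 did not pass the test, at an adjusted p under 0.05 over all genes. Of all 19938 genes, 9.72% were called lower and 19.3% higher in the same comparison. The median log2 change of the members was -0.51, against 0.12 over all genes. With arrays centred on their medians 20 members fell and 3 rose, against 13.2% and 14.6% of all genes.

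**Figure D1:**
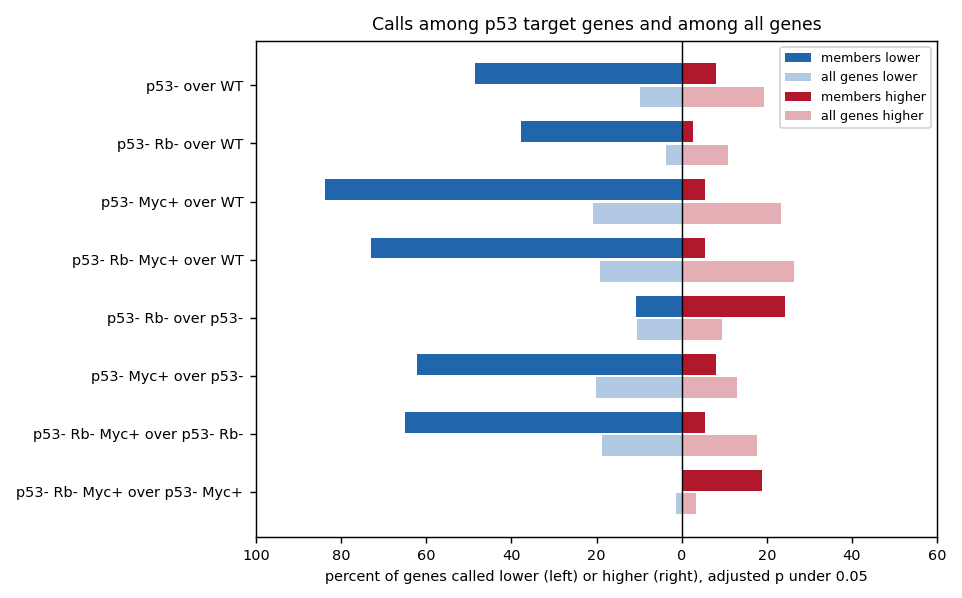
Percent of the 37 p53 target genes (dark bars) and of all 19938 genes (pale bars) called lower (left, blue) or higher (right, red) in each of the 8 comparisons, at an adjusted p under 0.05. Members were called lower in 18 of 37 cases in p53- cells over WT cells and in 31 of 37 cases in p53- Myc+ cells over WT cells, while p53- Rb- Myc+ cells over p53- Myc+ cells had 7 members higher and 0 lower.

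Among the feedback genes, Mdm2, the ubiquitin ligase that marks p53 for destruction, read 382, 453 and 421 in p53- arrays, against 559, 724 and 921 in WT arrays. The groups did not overlap, although the WT arrays themselves spread widely, and Mdm2 fell with a log2 change of -0.76 ± 0.19 (SE, adjusted p = 0.00408). Ppm1d, a phosphatase that damps p53 signalling, read 84.5, 89.5 and 109 in p53- arrays and 84.0, 82.5 and 83.6 in WT arrays. Its 2 groups lay close together and it did not pass the test, with a log2 change of 0.15 ± 0.16 (SE, adjusted p = 0.515).

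Of the 8 genes of arrest, growth restraint and mitosis, Psrc1, Btg2, Ccng1 and Gtse1 fell, and Gadd45a rose. Ccng1, which encodes cyclin G1, read 569, 637 and 649 in p53- arrays, against 1093, 1140.1 and 1209.8 in WT arrays. All p53- arrays were thus close to each other and well below the WT arrays, with a log2 change of -0.88 ± 0.16 (SE, adjusted p = 0.000371). Btg2, an antiproliferative protein of the BTG and TOB family, read 131, 102 and 122 in p53- arrays, against 243, 236 and 291 in WT arrays, a log2 change of -1.02 ± 0.17 (SE, adjusted p = 0.000173). Psrc1, a microtubule-binding protein of the mitotic spindle, read 49.1, 72.9 and 71.5 in p53- arrays, against 221, 264 and 268 in WT arrays. Its highest p53- array was below every WT array by a wide margin, and the log2 change was -1.74 ± 0.16 (SE, adjusted p = 2.04e-07). Gtse1, which binds microtubules and restrains p53 in G2, had a log2 change of -0.71 ± 0.16 (SE, adjusted p = 0.00278). Gadd45a, a growth arrest and DNA damage gene, went the other way: it read 465, 326 and 525 in p53- arrays, against 169, 226 and 287 in WT arrays, with a log2 change of 0.90 ± 0.21 (SE, adjusted p = 0.00331). Tob1 (-0.36), Plk2 (0.40) and Plk3 (-0.01, all log2 changes) did not pass the test. All 11 genes of a proliferation list, such as Mki67 and Ccna2, rose in the same comparison (summed intensity 6727 to 7590 in p53- arrays, 3721 to 3802 in WT arrays). Their part in these changes was not tested.

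**Figure D2:**
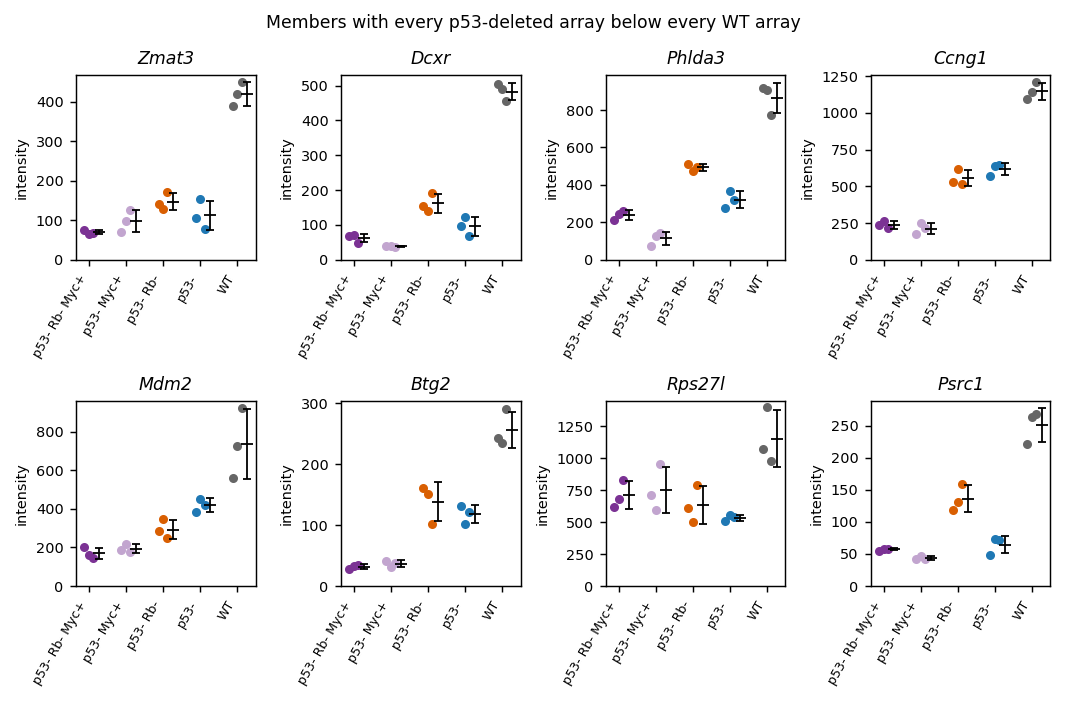
Intensity of 8 p53 target genes in every array, with a panel for each gene, the 5 groups on the horizontal axis and linear vertical axes that start at 0. Points are arrays and black bars are the mean ± SD of 3 arrays. In each panel all 12 arrays of the p53-deleted groups lie below the 3 WT arrays.

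Ccng1, Gtse1 and Rps27l are shown with their promoters because they fell in p53- cells and their promoters hold a close match to the p53 consensus element, and Gadd45a and Sesn1 because theirs hold a looser match while Gadd45a rose in p53- cells and Sesn1 in p53- Rb- Myc+ cells over WT. The sequences are from RefSeq (GRCm38.p6) and span 250 bases before to 50 bases after an annotated transcription start. The capitals mark 2 neighbouring matches of 10 bases to the p53 half-site consensus with a spacer of 0 to 13 bases and at most 2 mismatches over the 20 bases. The fixed C and G in the core of each half-site had to match. The consensus is palindromic, so both strands were covered, and overlapping matches of one promoter count once.
Ccng1, chr11:40755237-40755536, minus strand: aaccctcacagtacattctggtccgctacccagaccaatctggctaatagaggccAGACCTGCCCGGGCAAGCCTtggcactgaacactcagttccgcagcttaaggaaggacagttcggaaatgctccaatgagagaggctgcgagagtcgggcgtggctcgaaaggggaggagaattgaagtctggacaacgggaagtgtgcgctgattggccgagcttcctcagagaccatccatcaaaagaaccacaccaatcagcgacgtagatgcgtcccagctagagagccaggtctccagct
Rps27l, chr9:66946163-66946462, plus strand: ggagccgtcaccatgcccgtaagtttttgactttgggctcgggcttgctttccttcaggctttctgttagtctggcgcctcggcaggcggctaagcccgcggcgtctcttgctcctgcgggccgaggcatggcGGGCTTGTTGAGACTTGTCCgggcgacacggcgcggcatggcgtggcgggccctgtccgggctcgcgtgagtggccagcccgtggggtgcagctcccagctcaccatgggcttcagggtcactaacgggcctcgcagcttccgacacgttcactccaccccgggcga
Gtse1, chr15:85859696-85859995, plus strand: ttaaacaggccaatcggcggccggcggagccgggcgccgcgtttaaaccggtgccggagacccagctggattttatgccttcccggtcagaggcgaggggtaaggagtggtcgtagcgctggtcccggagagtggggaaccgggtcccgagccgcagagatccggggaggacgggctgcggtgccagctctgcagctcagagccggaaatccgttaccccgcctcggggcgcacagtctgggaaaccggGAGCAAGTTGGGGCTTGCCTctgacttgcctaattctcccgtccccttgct
Gadd45a, chr6:67037358-67037657, minus strand: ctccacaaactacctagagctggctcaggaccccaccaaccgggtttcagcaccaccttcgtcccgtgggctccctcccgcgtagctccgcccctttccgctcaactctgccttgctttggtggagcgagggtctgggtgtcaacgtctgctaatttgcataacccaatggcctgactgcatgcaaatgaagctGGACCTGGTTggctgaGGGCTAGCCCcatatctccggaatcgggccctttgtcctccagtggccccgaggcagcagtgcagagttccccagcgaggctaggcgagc
Sesn1, chr10:41887189-41887488, plus strand: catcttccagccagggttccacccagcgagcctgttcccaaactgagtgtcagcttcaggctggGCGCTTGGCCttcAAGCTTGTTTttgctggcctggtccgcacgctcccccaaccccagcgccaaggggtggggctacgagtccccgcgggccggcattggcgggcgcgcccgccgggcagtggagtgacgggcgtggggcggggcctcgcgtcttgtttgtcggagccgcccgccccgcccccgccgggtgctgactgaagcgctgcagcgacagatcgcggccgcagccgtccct
The match had 1 mismatch and no spacer in Ccng1, Rps27l and Gtse1, and 2 mismatches in Gadd45a (spacer of 6 bases) and Sesn1 (spacer of 3 bases). Rps27l, Gtse1 and Sesn1 each have 2 annotated starts, and the window of the start with the match is shown. It begins 195 bases before the start in Ccng1, 117 before it in Rps27l, 56 before it in Gadd45a, 186 before it in Sesn1 and 1 base before it in Gtse1. A RefSeq promoter was at hand for 30 of the 38 listed genes, and 5 of these 30 (16.7%) held such a match, against 1272 of 27025 genes (4.71%). A half-site without mismatch stood in 10 of the 30 (33.3%), against 2582 of the 27025 genes (9.55%), and the other 5 of these 10 were Mdm2, Ppm1d, Ei24, Aen and Polk. Members that fell in p53- cells had a half-site in 6 of 16 promoters and members that did not pass the test in 3 of 12, counts given with no test. A match is a string of letters and not a measured binding site, and a promoter without it may have one outside this window.

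In the apoptosis group of 13 genes, Zmat3, Phlda3, Eda2r, Rps27l, Aen, Ei24, Fas and Tnfrsf10b fell, and Pmaip1 rose. Zmat3, an RNA-binding zinc finger protein, read 105, 153 and 78.4 in p53- arrays, against 390.1, 421 and 449.7 in WT arrays. Every p53- array was well under the lowest WT value, and the log2 change was -1.81 ± 0.20 (SE, adjusted p = 2.19e-06). Phlda3, which blocks AKT signalling at the membrane, read 276, 366 and 320.1 in p53- arrays, against 917, 906 and 771 in WT arrays, with a log2 change of -1.39 ± 0.19 (SE, adjusted p = 1.84e-05). Rps27l, a paralogue of ribosomal protein S27, read 509, 552 and 544 in p53- arrays, against 1074, 1404 and 980.1 in WT arrays, a log2 change of -1.07 ± 0.20 (SE, adjusted p = 0.000422). Whether its probes also read Rps27 was not tested. The nuclease Aen had a log2 change of -0.78 ± 0.17 (SE, adjusted p = 0.00196), and Ei24, a protein of the endoplasmic reticulum, one of -0.67 ± 0.18 (SE, adjusted p = 0.00779). Eda2r, a receptor of the TNF receptor family, was dim, at 20.2, 13.6 and 21.3 in p53- arrays and 53.2, 63.5 and 63.9 in WT arrays, without overlap between the groups (log2 change -1.15, adjusted p = 3.97e-05). The death receptors Fas (-0.56) and Tnfrsf10b (-0.51) had smaller log2 changes. Fas lost its call without WT replicate 2 (adjusted p = 0.0763), and Tnfrsf10b without p53- replicate 1 or 3 (adjusted p = 0.0575 to 0.0608).

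Pmaip1, which encodes the BH3-only protein NOXA, read 176, 161 and 222 in p53- arrays, against 43.1, 62.0 and 66.0 in WT arrays. All 3 p53- arrays were above the highest WT array, so this p53 target was higher without p53, with a log2 change of 1.47 ± 0.22 (SE, adjusted p = 4.53e-05). In the same comparison 3 of 7 genes of an integrated stress response list rose (Ddit3, Chac1 and Asns) and 0 fell, with a summed intensity of 2561 to 2870 in p53- arrays and 2032 to 2108 in WT arrays. In p53- Rb- cells over WT 5 of these 7 genes rose and 0 fell, with a sum of 3380 to 3518 in p53- Rb- arrays. Pmaip1 did not pass the test in that comparison. The part of that list in the Pmaip1 change was not tested. The other BH3-only gene, Bbc3, which encodes PUMA, read 94.9, 86.6 and 73.9 in p53- arrays and 109, 147 and 79.2 in WT arrays, with overlapping groups and a log2 change of -0.31 ± 0.20 (SE, adjusted p = 0.26). Perp, a membrane protein of desmosomes, read 753, 748 and 758 in p53- arrays and 842, 735 and 749 in WT arrays, again with overlap (log2 change -0.04, SE 0.15, adjusted p = 0.868). Apaf1, the core of the apoptosome, and Trp53inp1, a nuclear protein of autophagy and apoptosis, did not pass the test either, with log2 changes of -0.14 and -0.57.

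**Figure D3:**
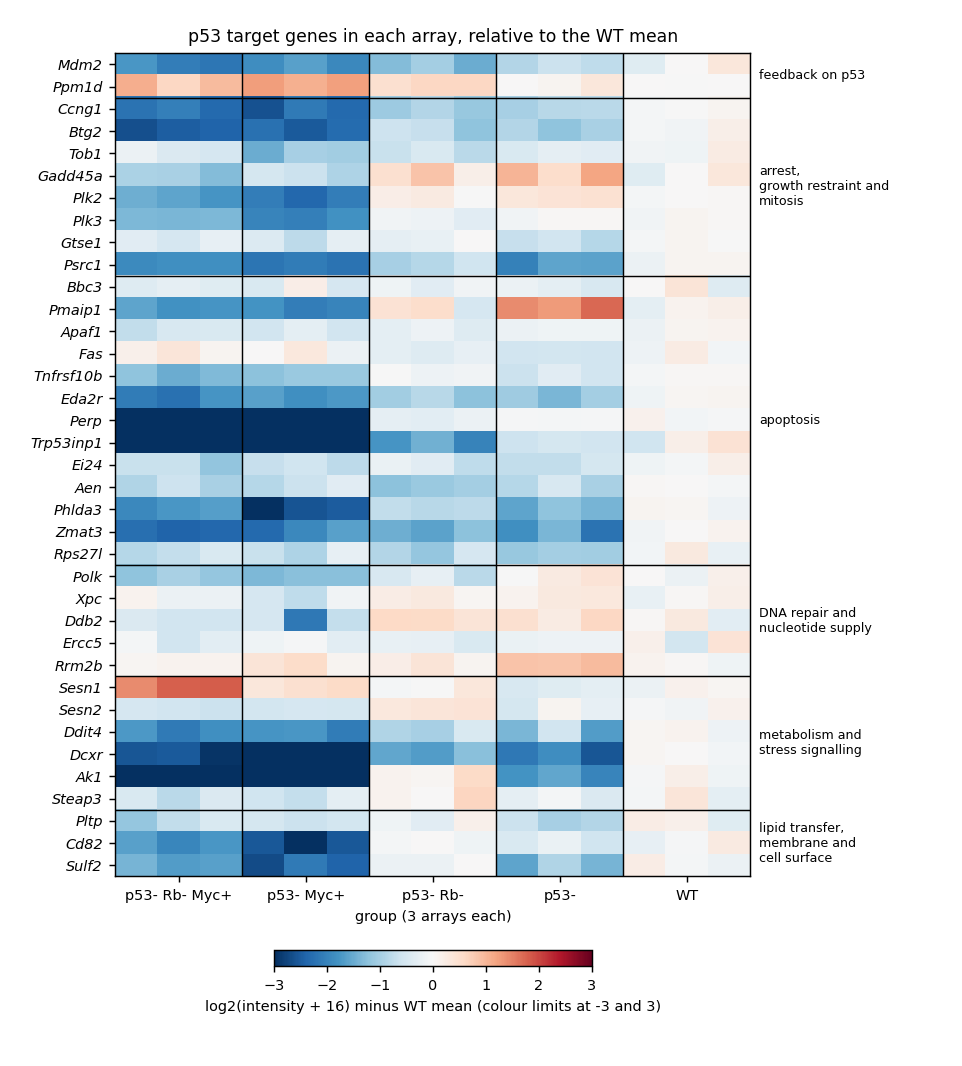
The 37 members (rows, grouped by role) in each of the 15 arrays (columns, 3 for each group), as log2(intensity + 16) minus the mean of the 3 WT arrays, with blue for lower and red for higher and colours that saturate at -3 and 3. Blue runs through all 4 p53-deleted groups for Mdm2, Ccng1, Btg2, Zmat3, Phlda3 and Dcxr, Perp, Trp53inp1 and Ak1 reach the blue limit in both Myc+ groups, and Ppm1d and Sesn1 are red there.

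Of the 5 genes of DNA repair and nucleotide supply, Rrm2b rose and the other 4 did not pass the test. Rrm2b, the p53-inducible small subunit of ribonucleotide reductase, read 70.6, 69.7 and 76.3 in p53- arrays, against 35.6, 33.4 and 27.6 in WT arrays, a log2 change of 0.88 ± 0.16 (SE, adjusted p = 0.000323). It was thus higher in all p53- arrays. The nucleotide excision repair genes Xpc (0.24), Ddb2 (0.44) and Ercc5 (-0.17) and the translesion polymerase Polk (0.23) had log2 changes in both directions and did not pass the test.

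In metabolism and stress signalling, Dcxr, Ak1 and Ddit4 fell, and Steap3, Sesn1 and Sesn2 did not pass the test. Dcxr, the dicarbonyl and L-xylulose reductase, read 97.1, 121 and 67.8 in p53- arrays, against 503, 490.4 and 455 in WT arrays. This was the largest fall among the 37 members in this comparison, with a log2 change of -2.19 ± 0.18 (SE, adjusted p = 3.08e-08). Ak1, a cytosolic adenylate kinase, read 95.9, 116 and 82.8 in p53- arrays, against 361, 422 and 339 in WT arrays, a log2 change of -1.78 ± 0.20 (SE, adjusted p = 2.62e-06). Ddit4, an inhibitor of mTORC1, had a log2 change of -1.20 ± 0.22 (SE, adjusted p = 0.000393). At the cell surface and in lipid transfer, Sulf2, an extracellular heparan sulfatase, read 235, 384 and 269 in p53- arrays, against 867, 708 and 655 in WT arrays, and fell with a log2 change of -1.30 ± 0.19 (SE, adjusted p = 3.73e-05). Pltp, the phospholipid transfer protein, fell as well (-0.83, SE 0.20, adjusted p = 0.00312), while the tetraspanin gene Cd82 did not pass the test (log2 change -0.42, adjusted p = 0.0949). Of 5 leukocyte markers 3 fell (Lyz2, Cd14 and Cd68) and 1 rose (Ptprc) in the same comparison, with a summed intensity of 428 to 552 in p53- arrays and 1902 to 2272 in WT arrays. Most of this sum was Cd14, at 255 to 373 in p53- arrays and 1366 to 1750.5 in WT arrays. Of 5 basal epithelial markers 3 fell and 0 rose, with a sum of 5720.2 to 6964 in p53- arrays and 8240 to 8561 in WT arrays. The part of both marker lists in these changes was not tested.

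By the labels, Rb was deleted on top of p53 in the p53- Rb- cells, which were set against the WT and the p53- arrays. Rb1 in the p53- Rb- arrays, given above, lay below both but above both Myc+ groups, so complete loss of Rb was not shown. These 2 comparisons share the p53- Rb- arrays, and all comparisons with WT share the WT arrays. Over WT, 14 members fell, 1 rose and 22 did not pass the test, where 3.75% of all genes were called lower and 10.8% higher. The median log2 change was -0.26 for the members and 0.04 for all genes. All 6 fibroblast markers rose over WT, with a summed intensity of 3018 to 3873 in p53- Rb- arrays and 1679 to 1995 in WT arrays. Of the 5 leukocyte markers Cd14 and Lyz2 fell and 0 rose, with a sum of 641 to 735 in p53- Rb- arrays and 1902 to 2272 in WT arrays. Most of this sum was again Cd14. The part of these markers in the members' changes was not tested. Over p53- cells, 4 members fell, 9 rose and 24 did not pass the test, where 10.4% of all genes were called lower and 9.36% higher. The median log2 change over p53- cells was 0.19 for the members and -0.08 for all genes. The share of members called lower over p53- was near that of all genes. After quantile normalization 15 members fell and 1 rose over WT, against 5.61% and 8% of all genes.

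Over WT, p53- Rb- cells had lower Mdm2, Ccng1, Btg2, Psrc1, Eda2r, Aen, Phlda3, Zmat3, Rps27l and Dcxr. Zmat3 read 142, 128 and 171 in p53- Rb- arrays, against 390.1, 421 and 449.7 in WT arrays, a log2 change of -1.43 ± 0.20 (SE, adjusted p = 5.35e-05). Mdm2 read 285, 347 and 247 in p53- Rb- arrays, against 559, 724 and 921 in WT arrays, a log2 change of -1.27 ± 0.19 (SE, adjusted p = 9.03e-05). Trp53inp1 read 77.6, 103 and 63.2 in p53- Rb- arrays, against 196, 344 and 413 in WT arrays. It fell by more than any other member in this comparison, with a log2 change of -1.74 ± 0.22 (SE, adjusted p = 1.25e-05). Dcxr read 154, 139 and 193 in p53- Rb- arrays and Aen 91.6, 101 and 108, against 503, 490.4 and 455 for Dcxr and 243, 241 and 229 for Aen in WT arrays, without overlap. The log2 changes were -1.50 ± 0.18 (SE, adjusted p = 8.43e-06) for Dcxr and -1.12 ± 0.17 (SE, adjusted p = 0.000139) for Aen. Eda2r was dim again and had a log2 change of -1.04 ± 0.17 (SE, adjusted p = 0.000258). Ppm1d was the 1 member that rose, and its groups did not overlap: it read 122, 136 and 137 in p53- Rb- arrays, against 84.0, 82.5 and 83.6 in WT arrays (log2 change 0.57, SE 0.16, adjusted p = 0.0178). Ddit4 (-0.79), Tob1 (-0.65) and Polk (-0.51) complete the members that fell, with their log2 changes. Leaving out 1 array at a time, Ddit4 lost its call without p53- Rb- replicate 1 or 2 or WT replicate 1 or 2 (adjusted p = 0.0561 to 0.0961) and Tob1 without p53- Rb- replicate 1 or 3 or WT replicate 3 (adjusted p = 0.0546 to 0.0577). Polk lost it without p53- Rb- replicate 1 or 3 or WT replicate 1, 2 or 3 (adjusted p = 0.0537 to 0.2) and Ppm1d without p53- Rb- replicate 2 or WT replicate 2 (adjusted p = 0.0534 to 0.0663). Eda2r lost its call with a pseudocount of 1 (adjusted p = 0.0739).

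Over p53- cells, the members that rose in p53- Rb- cells were Ak1, Sulf2, Psrc1, Pltp, Dcxr, Sesn2, Phlda3, Gtse1 and Sesn1. Ak1 read 404, 387 and 563 in p53- Rb- arrays, against 95.9, 116 and 82.8 in p53- arrays, a log2 change of 2.02 ± 0.20 (SE, adjusted p = 8.37e-07). The p53- Rb- arrays were close to the WT arrays, which read 361, 422 and 339, and Ak1 did not pass the test over WT (log2 change 0.25, SE 0.20, adjusted p = 0.467). Sulf2 read 647, 652 and 741 in p53- Rb- arrays, against 235, 384 and 269 in p53- arrays, a log2 change of 1.18 ± 0.19 (SE, adjusted p = 0.000148). Psrc1 read 118, 131 and 159 in p53- Rb- arrays, against 49.1, 72.9 and 71.5 in p53- arrays (0.92, SE 0.16, adjusted p = 0.000403), and its p53- Rb- arrays remained below all WT arrays. Pltp read 168, 145 and 208 in p53- Rb- arrays, against 114, 86.2 and 94.9 in p53- arrays, a log2 change of 0.72 ± 0.20 (SE, adjusted p = 0.0121). Dcxr had a log2 change of 0.69 ± 0.18 (SE, adjusted p = 0.00946) and the sestrin Sesn2, which restrains mTORC1, one of 0.61 ± 0.16 (SE, adjusted p = 0.0102). The log2 change was 0.61 for Phlda3, 0.54 for Gtse1 and 0.47 for the other sestrin, Sesn1. In the same comparison 4 of 6 fibroblast markers rose (Col1a1, Col3a1, Pdgfra and Pdgfrb) and 0 fell, with a summed intensity of 3018 to 3873 in p53- Rb- arrays and 1402 to 1640 in p53- arrays. Their part in these changes was not tested.

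The 4 members that fell over p53- cells were Pmaip1, Trp53inp1, Polk and Rrm2b. Pmaip1 read 81.3, 88.1 and 35.4 in p53- Rb- arrays, against 176, 161 and 222 in p53- arrays, a log2 change of -1.32 ± 0.22 (SE, adjusted p = 0.000205). Its p53- Rb- arrays overlapped the WT arrays (43.1, 62.0 and 66.0), so Pmaip1 was higher than WT in p53- cells and not detectably so in p53- Rb- cells. Trp53inp1 read 77.6, 103 and 63.2 in p53- Rb- arrays, against 192, 206 and 200.1 in p53- arrays (-1.17, SE 0.22, adjusted p = 0.000677). Polk had a log2 change of -0.74 ± 0.17 (SE, adjusted p = 0.00381) and Rrm2b one of -0.65 ± 0.16 (SE, adjusted p = 0.0055). The count of 13 calls over p53- cells became 8 without p53- Rb- replicate 3 (4 lower, 4 higher), where 5.32% of all genes were called lower and 5.21% higher. With arrays weighted by their quality it became 23 (7 lower, 16 higher), where 23.6% of all genes were called lower and 19.1% higher, so the calls over all genes moved with the members' count. Of the 9 members that rose, 6 lost the call when 1 array was left out. Sesn1 lost it without p53- Rb- replicate 1, 2 or 3 or p53- replicate 1, 2 or 3 (adjusted p = 0.06 to 0.231). Phlda3 lost it without p53- Rb- replicate 1 or 3 or p53- replicate 1 or 3 (adjusted p = 0.0807 to 0.129), and Gtse1 without p53- Rb- replicate 3 or p53- replicate 1 or 3 (adjusted p = 0.0618 to 0.12). Dcxr lost it without p53- Rb- replicate 3 or p53- replicate 3 (adjusted p = 0.0687 to 0.0931), Pltp without p53- Rb- replicate 3 (adjusted p = 0.0833), and Sesn2 without p53- replicate 1 (adjusted p = 0.0826).

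MYC was added to p53- and to p53- Rb- cells, and each Myc+ group was set against the group without Myc+ and against WT. In p53- Myc+ cells over p53- cells 23 members fell, 3 rose and 11 did not pass the test, where 20.2% of all genes were called lower and 13.1% higher. With arrays centred on their medians these became 19 members lower and 4 higher, and 14.4% and 21% of all genes. In p53- Rb- Myc+ cells over p53- Rb- cells 24 fell, 2 rose and 11 did not pass the test, where 18.7% of all genes were called lower and 17.6% higher. The median log2 change of the members was -0.67 in p53- Myc+ cells over p53- cells, against -0.09 over all genes, and -0.94 in p53- Rb- Myc+ cells over p53- Rb- cells, against 0.12 over all genes. Against WT, 31 members fell and 2 rose in p53- Myc+ cells (20.9% and 23.4% of all genes), and 27 fell and 2 rose in p53- Rb- Myc+ cells (19.1% and 26.3% of all genes). In these same comparisons over p53-, p53- Rb- and WT cells all 6 luminal markers fell in the Myc+ groups. Their part in the members' changes was not tested.

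Each of the 6 roles had at least 1 member that fell in each of the comparisons over p53- and p53- Rb- cells. Of the 2 feedback genes only Mdm2 fell, and Ppm1d rose in p53- Myc+ cells over p53- cells. In p53- Rb- Myc+ cells over p53- Rb- cells 2 of 5 DNA repair genes fell. Perp read 10.7, 13.5 and 13.6 in p53- Rb- Myc+ arrays and 5.91, 4.61 and 9.40 in p53- Myc+ arrays. The other groups read 635, 615 and 683 in p53- Rb- arrays, 753, 748 and 758 in p53- arrays and 842, 735 and 749 in WT arrays. It stood at the bottom of the scale in both Myc+ groups and was bright in the other 3. Its log2 changes were -4.53 ± 0.15 (SE, adjusted p = 1.81e-16) in p53- Rb- Myc+ cells over p53- Rb- cells and -5.09 ± 0.15 (SE, adjusted p = 2.03e-17) in p53- Myc+ cells over p53- cells. Ak1 read 11.3, 10.3 and 0.985 in p53- Rb- Myc+ arrays and 10.5, 2.51 and 7.34 in p53- Myc+ arrays, so all other groups, given above, were far higher. The log2 changes were -4.32 ± 0.20 (SE, adjusted p = 7.66e-14) over p53- Rb- cells and -2.33 ± 0.20 (SE, adjusted p = 3.1e-09) in p53- Myc+ cells over p53- cells. Pmaip1 read 8.11, 4.67 and 5.38 in p53- Rb- Myc+ arrays and 5.00, 1.04 and 2.40 in p53- Myc+ arrays, below every other array. The log2 changes of Pmaip1 were -1.87 ± 0.22 (SE, adjusted p = 3.33e-07) over p53- Rb- cells and -3.42 ± 0.22 (SE, adjusted p = 1.57e-11) in p53- Myc+ cells over p53- cells. Trp53inp1 read 16, 17.3 and 12.4 in p53- Rb- Myc+ arrays and 17.4, 15.7 and 6.57 in p53- Myc+ arrays. It fell with log2 changes of -1.62 ± 0.22 (SE, adjusted p = 2.9e-06) over p53- Rb- cells and -2.90 ± 0.22 (SE, adjusted p = 2.85e-10) in p53- Myc+ cells over p53- cells. All of these are values near the bottom of the intensity scale, where the size of a log2 change depends on the pseudocount.

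Plk2 and Plk3, polo-like kinases of the stress response, passed no test against WT without Myc+ and fell with it. Plk2 read 260.3, 241 and 209 in p53- Rb- Myc+ arrays and 165, 134 and 166 in p53- Myc+ arrays. The other groups read 862, 912 and 743 in p53- Rb- arrays, 949, 998 and 1034 in p53- arrays and 721, 755 and 773 in WT arrays. The 6 Myc+ arrays were all below the other 9. Plk2 had log2 changes of -1.76 ± 0.15 (SE, adjusted p = 3.32e-09) in p53- Rb- Myc+ cells over p53- Rb- cells and -2.56 ± 0.15 (SE, adjusted p = 4.81e-12) in p53- Myc+ cells over p53- cells. Cd82 read 91.4, 69.2 and 82.9 in p53- Rb- Myc+ arrays and 40.1, 21.4 and 40.3 in p53- Myc+ arrays, against 301, 314 and 287 in p53- Rb- arrays and 225, 271 and 201 in p53- arrays, with the same separation. Its log2 changes were -1.71 ± 0.19 (SE, adjusted p = 1.17e-07) in p53- Rb- Myc+ cells over p53- Rb- cells and -2.33 ± 0.19 (SE, adjusted p = 7.27e-10) in p53- Myc+ cells over p53- cells.

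Several genes that were already lower without p53 were lower again with Myc+. Ccng1 read 235, 265 and 213 in p53- Rb- Myc+ arrays and 174, 250 and 215 in p53- Myc+ arrays. These values gave log2 changes of -1.17 ± 0.16 (SE, adjusted p = 3.67e-06) over p53- Rb- cells and -1.48 ± 0.16 (SE, adjusted p = 1.09e-07) in p53- Myc+ cells over p53- cells. Mdm2 read 203, 159 and 147 in p53- Rb- Myc+ arrays and 186, 221 and 178 in p53- Myc+ arrays. Its log2 changes were -0.73 ± 0.19 (SE, adjusted p = 0.00352) over p53- Rb- cells and -1.05 ± 0.19 (SE, adjusted p = 0.000104) in p53- Myc+ cells over p53- cells. Btg2 read 27.9, 32.7 and 35 in p53- Rb- Myc+ arrays and 41.4, 31.1 and 38.4 in p53- Myc+ arrays, below the p53- Rb- arrays (162, 151 and 102). Btg2 had log2 changes of -1.67 ± 0.17 (SE, adjusted p = 5.62e-08) over p53- Rb- cells and -1.34 ± 0.17 (SE, adjusted p = 1.54e-06) in p53- Myc+ cells over p53- cells. Phlda3 (-1.0 and -1.41) fell in both comparisons too, given in the same order as log2 changes. Zmat3 fell over p53- Rb- cells (-0.91, SE 0.20, adjusted p = 0.00098) and did not pass the test in p53- Myc+ cells over p53- cells (-0.16, SE 0.20, adjusted p = 0.595), and Rps27l, Aen and Ei24 passed in neither.

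**Figure D4:**
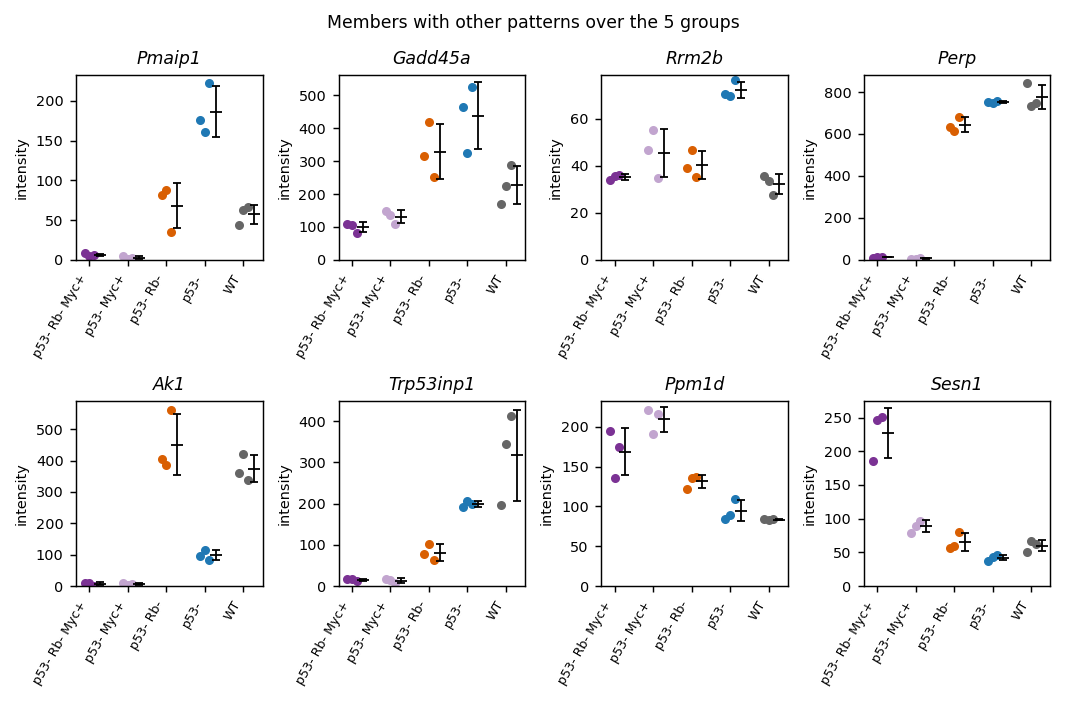
Intensity of 8 members with other patterns in every array, with a panel for each gene, the 5 groups on the horizontal axis and linear vertical axes that start at 0. Points are arrays and black bars are the mean ± SD of 3 arrays. Pmaip1, Gadd45a and Rrm2b have their highest mean in p53- arrays, Perp, Ak1 and Trp53inp1 are near 0 in both Myc+ groups, and Ppm1d and Sesn1 are highest in a Myc+ group.

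A few members ran against this. Sesn1 read 185, 246 and 250.2 in p53- Rb- Myc+ arrays and 79.4, 89.5 and 96.8 in p53- Myc+ arrays. The other groups read 56.7, 59.5 and 80.1 in p53- Rb- arrays, 37.9, 43.1 and 46.0 in p53- arrays and 51.2, 66.5 and 62.2 in WT arrays. It was highest in the p53- Rb- Myc+ arrays, where it rose over p53- Rb- cells by 1.58 ± 0.17 (SE, adjusted p = 7.66e-08) on the log2 scale, and it rose in p53- Myc+ cells over p53- cells by 0.84 ± 0.17 (SE, adjusted p = 0.000331). Ppm1d read 194, 136 and 174 in p53- Rb- Myc+ arrays and 220.3, 191 and 216 in p53- Myc+ arrays, and rose over p53- cells in the p53- Myc+ cells (1.03, SE 0.16, adjusted p = 1.55e-05) but did not pass the test in p53- Rb- Myc+ cells over p53- Rb- cells (0.31, SE 0.16, adjusted p = 0.134). Fas rose in both, by 0.51 ± 0.17 (SE, adjusted p = 0.0176) in p53- Rb- Myc+ cells over p53- Rb- cells and 0.61 ± 0.17 (SE, adjusted p = 0.00578) in p53- Myc+ cells over p53- cells. Fas lost its call over p53- Rb- cells without p53- Rb- Myc+ replicate 2 or p53- Rb- replicate 2 (adjusted p = 0.0614 to 0.0889).

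Against WT, the members of p53- Rb- Myc+ cells with the largest falls were Perp (-4.79, SE 0.15, adjusted p = 6.64e-17), Ak1 (-4.08, SE 0.20, adjusted p = 1.75e-13), Trp53inp1 (-3.36, SE 0.22, adjusted p = 2e-11), Dcxr (-2.68, SE 0.18, adjusted p = 4.02e-11), Btg2 (-2.51, SE 0.17, adjusted p = 5.69e-11) and Zmat3 (-2.34, SE 0.20, adjusted p = 2.4e-09), as log2 changes. In p53- Myc+ cells they were Perp (-5.13, SE 0.15, adjusted p = 1.59e-17), Ak1 (-4.11, SE 0.20, adjusted p = 1.23e-13), Trp53inp1 (-3.47, SE 0.22, adjusted p = 9.61e-12), Dcxr (-3.18, SE 0.18, adjusted p = 1.73e-12), Phlda3 (-2.80, SE 0.19, adjusted p = 3.33e-11) and Cd82 (-2.75, SE 0.19, adjusted p = 3.26e-11). Both comparisons share the WT arrays. The 2 members that rose over WT were Sesn1 and Ppm1d in each. Sesn1 had a log2 change of 1.67 ± 0.17 (SE, adjusted p = 2.48e-08) in p53- Rb- Myc+ cells and 0.46 ± 0.17 (SE, adjusted p = 0.0274) in p53- Myc+ cells over WT. In p53- Myc+ cells it lost its call without p53- Myc+ replicate 2 or 3 or WT replicate 1 (adjusted p = 0.0579 to 0.114). Ppm1d had one of 0.88 ± 0.16 (SE, adjusted p = 8.38e-05) in p53- Rb- Myc+ cells and 1.18 ± 0.16 (SE, adjusted p = 1.8e-06) in p53- Myc+ cells over WT. Among repair genes, Polk fell in both (-1.11 and -1.29, in the same order), and Xpc (-0.46) and Ddb2 (-1.11) fell in p53- Myc+ cells. The call of Xpc was lost without p53- Myc+ replicate 1 or 2 or WT replicate 2 or 3 (adjusted p = 0.0858 to 0.202). Ddb2 read 53.8, 6.22 and 44.4 in p53- Myc+ arrays, against 85.0, 104 and 62.5 in WT arrays, and its log2 change was -0.60 without p53- Myc+ replicate 2, the low array (adjusted p = 0.0147). The death receptor Tnfrsf10b fell in both (-1.34 and -1.16), and Fas, which was lower in p53- cells, did not pass the test in either (0.20 and 0.05).

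Over the whole set, all 12 arrays of the p53-deleted groups lay below all 3 WT arrays in 13 members, and in 3.96% of all genes. These were Mdm2, Ccng1, Btg2, Tob1, Psrc1, Eda2r, Ei24, Aen, Phlda3, Zmat3, Rps27l, Ddit4 and Dcxr. Ppm1d was the 1 member with all 12 arrays above WT, as were 6.58% of all genes. Without the 6 Myc+ arrays 14 members lay below WT, with Fas as the added one, as did 5.62% of all genes. All 6 Myc+ arrays lay below the other 9 arrays in 17 members and above them in 0, against 11.5% and 7.22% of all genes. Bbc3 and Ercc5 passed the test in none of the 4 comparisons with WT. Bbc3 read 79.1, 87.2 and 80.5 in p53- Rb- Myc+ arrays, 74.7, 127 and 72.5 in p53- Myc+ arrays and 98.7, 82.1 and 99.7 in p53- Rb- arrays, so all its groups overlapped WT in level.

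The change with the Rb- label in Myc+ cells was read from p53- Rb- Myc+ cells over p53- Myc+ cells. Rb1 in the p53- Myc+ arrays, labelled with intact Rb, lay below all p53- Rb- arrays, with the values given above. By Rb1 RNA this is thus not a clear comparison of lost with intact Rb. In this comparison 7 members rose, 0 fell and 30 did not pass the test, where 3.29% of all genes were called higher and 1.4% lower. With arrays centred on their medians 5 rose and 0 fell, against 2.5% and 1.98% of all genes. The 7 were Sesn1, Phlda3, Cd82, Sulf2, Tob1, Plk3 and Plk2. The Sesn1 arrays given above did not overlap between these groups, with a log2 change of 1.21 ± 0.17 (SE, adjusted p = 3.18e-05). Phlda3 read 212, 247 and 261 in p53- Rb- Myc+ arrays, against 72.6, 129 and 140.5 in p53- Myc+ arrays, a log2 change of 1.02 ± 0.19 (SE, adjusted p = 0.00131). Tob1 read 362, 301 and 285 in p53- Rb- Myc+ arrays, against 136, 199.6 and 192 in p53- Myc+ arrays (0.80, SE 0.17, adjusted p = 0.00588), without overlap. Cd82 had a log2 change of 0.98 ± 0.19 (SE, adjusted p = 0.00154) and Sulf2 one of 0.84 ± 0.19 (SE, adjusted p = 0.00782). The count of 7 became 3 without p53- Myc+ replicate 1, where 2.86% of all genes were called higher and 1.13% lower. It became 4 without p53- Rb- Myc+ replicate 1, where these shares were 2.45% and 1.07%. Plk3 had a log2 change of 0.60 ± 0.15 (SE, adjusted p = 0.0155) and Plk2 one of 0.56 ± 0.15 (SE, adjusted p = 0.0325). Plk2 lost its call without p53- Rb- Myc+ replicate 1 or 2 or p53- Myc+ replicate 1 or 2 (adjusted p = 0.0557 to 0.157), and Plk3 without p53- Rb- Myc+ replicate 1 or 2 or p53- Myc+ replicate 1 or 2 (adjusted p = 0.0512 to 0.0677). Sulf2 lost it without p53- Rb- Myc+ replicate 1 or p53- Myc+ replicate 1 (adjusted p = 0.0578 to 0.0617), and Tob1 without p53- Myc+ replicate 1 (adjusted p = 0.0538). Of the 6 luminal markers Krt19 and Krt18 rose in the same comparison and 0 fell, with the sums given above. Most of the sum in p53- Rb- Myc+ arrays was Krt19, at 465 to 517, against 65.7 to 81.6 in p53- Myc+ arrays. Krt18 was near the bottom of the scale in both, at 22.0 to 26.7 and 0.471 to 10.7, against 4526 to 4881.5 in WT arrays. Their part in these changes was not tested.

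The change with the Rb- label in Myc+ cells was then set against that in cells without Myc+, as a difference of the 2 log2 changes. It was above 0 for 7 members and below 0 for 3, against 8.78% and 4.86% of all genes. With arrays centred on their medians the split was 6 above and 6 below 0, and 5.98% of all genes were above and 7.27% below. Pmaip1, Trp53inp1 and Polk were lower with the Rb- label in cells without Myc+ and passed no test with it in Myc+ cells. The differences were 1.55 ± 0.31 (SE, adjusted p = 0.00175) for Pmaip1 and 1.28 ± 0.31 (SE, adjusted p = 0.00744) for Trp53inp1. Pmaip1 and Trp53inp1 were near the bottom of the scale in both Myc+ groups. Ak1 had the opposite sign, with -1.99 ± 0.29 (SE, adjusted p = 6.06e-05), and it too was near the bottom in both Myc+ groups.

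**Figure D5:**
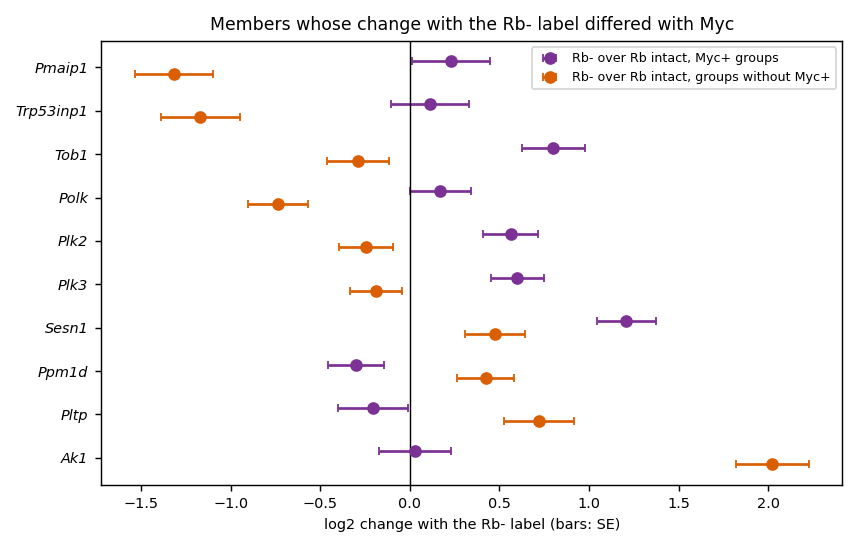
Log2 change with the Rb- label for the 10 members whose change differed between cells with and without Myc+, in Myc+ cells (purple, p53- Rb- Myc+ over p53- Myc+) and in cells without Myc+ (orange, p53- Rb- over p53-). Points are fitted log2 changes and bars their SE. Ak1 is far to the right without Myc+ and near 0 with it, and Pmaip1 and Trp53inp1 are far to the left without Myc+ and close to 0 with it. These genes were near the bottom of the intensity scale in both Myc+ groups.

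Other genes of the pathway were read from 2 lists. Of 19 further p53 targets measured, 7 fell in p53- cells over WT (Ephx1, Cpt1c, Dram1, Igfbp3, Lif, Foxo3 and Rprm), 2 rose (Ptprv and Pcna) and 10 did not pass the test. Of all genes, 9.72% were called lower and 19.3% higher in this comparison. Ephx1, the microsomal epoxide hydrolase, read 61.8, 68.4 and 68.2 in p53- arrays, against 343, 262 and 339 in WT arrays, a log2 change of -2.0 ± 0.16 (SE, adjusted p = 1.73e-08). In p53- Rb- cells over WT 3 of the 19 fell and 1 rose, against 3.75% and 10.8% of all genes. In p53- Myc+ cells over WT 7 fell and 5 rose, against 20.9% and 23.4% of all genes. In p53- Rb- Myc+ cells over WT 8 fell and 3 rose, against 19.1% and 26.3% of all genes. Of 20 regulators of p53, 10 rose in p53- cells over WT and 2 fell, against 19.3% and 9.72% of all genes. Chek1, a checkpoint kinase, read 134, 134 and 133 in p53- arrays, against 21.1, 27.4 and 44.7 in WT arrays (1.70, SE 0.19, adjusted p = 2.7e-06), and the kinases Atr (1.32) and Atm (0.98) rose with it. Ppp1r13l, an inhibitor of p53, fell (-1.08, SE 0.26, adjusted p = 0.00333), as did the p53 family member Trp63 (-0.68, SE 0.18, adjusted p = 0.00714), which also marks basal epithelial cells.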

How the data were processed

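Biotin-labelled RNA was amplified with the WT-Ovation Pico system and read on 15 Affymetrix arrays, per the labels. The authors deposited a table of normalized intensity values on a linear scale (0.0000411 to 8348 over all probe sets), for which the submitters' processing notes name Affymetrix Expression Console, version 1.1. How probe sets were summarized, background-corrected and normalized is not given in the sources used, nor are detection calls, so no background limit was set. Array medians ran from 41.3 to 54.9, and 3 arrays a group limit the precision.

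Of 35556 probe sets, 21789 carry 1 gene symbol in GEO's platform annotation, 1621 several and the rest none here. Genes were tested on log2(intensity + 16) with limma 3.58.1 in R 4.3.3, in 1 fit over all 5 groups without a filter on low values, with Benjamini-Hochberg adjustment over 19938 genes and a threshold of 0.05, and the fit was checked on simulated data. The members, roles and lists were chosen with earlier results of these data known. Given in full in each comparison are the called members with the largest changes in each direction (up to 6) and members used as examples of a role; other genes are named only from the lists, with Rb1 and Myc as targeted genes. The description by non-overlapping arrays was added after seeing the data.

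Alternatives were other pseudocounts, median centring, quantile normalization, a filter on dim genes, array weights, a mean-dependent prior, the mean of all probe sets, only the groups compared, the replicate number as a block, and leaving out each array. Same-numbered arrays deviated together in p53- Rb- Myc+ over p53- Myc+ (correlations of 0.10 to 0.38 over the 3 pairs). In the other 7 comparisons the lowest correlation of a pair ran from -0.3751 to 0.0364. The labels themselves do not state a pairing.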

Additional observations from a re-analysis of the deposited data

Results flagged for a closer look

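The change with the Rb- label was tested for a difference between Myc+ cells (p53- Rb- Myc+ over p53- Myc+) and cells without Myc+ (p53- Rb- over p53-). The test of that difference passed for 10 of the 37 members, in limma's fit over all 15 arrays with Benjamini-Hochberg adjustment over all genes. Of all genes, 8.78% had a difference called above 0 and 4.86% below 0. With arrays centred on their medians 6 members were above 0 and 6 below, against 5.98% and 7.27% of all genes. The markers of both Myc+ groups went against the labelled epithelial cell type, as given above. Rb1 in the p53- Myc+ arrays, labelled with intact Rb, lay below all p53- Rb- arrays. The change in Myc+ cells is thus not a clear comparison of lost with intact Rb, and neither is the difference. Among the apoptosis genes, Pmaip1 differed by 1.55 ± 0.31 (SE, adjusted p = 0.00175), with log2 changes of 0.23 in Myc+ cells and -1.32 in cells without Myc+. Trp53inp1 differed by 1.28 ± 0.31 (SE, adjusted p = 0.00744), with log2 changes of 0.11 and -1.17 in the same order. In Myc+ arrays Pmaip1 read 1.04 to 8.11 and Trp53inp1 6.57 to 17.4, near the bottom of the scale. At such values the added 16 shrinks a log2 change towards 0, so a change with the Rb- label can be hidden there. Both differences kept their calls under every alternative, a pseudocount of 1 among them. Their size ran from 1.01 to 2.52 for Pmaip1 and from 0.91 to 1.59 for Trp53inp1. Tob1, an antiproliferative gene, differed by 1.09 ± 0.25 (SE, adjusted p = 0.00477), with log2 changes of 0.80 in Myc+ cells and -0.29 without Myc+. The kinases differed too, Plk2 by 0.81 ± 0.22 (SE, adjusted p = 0.0152) and Plk3 by 0.79 ± 0.21 (SE, adjusted p = 0.0136). Both kinases rose with the Rb- label in Myc+ cells and passed no test without Myc+. Polk differed by 0.91 ± 0.24 (SE, adjusted p = 0.0139), and Sesn1, which rose in both settings, by 0.74 ± 0.24 (SE, adjusted p = 0.0408).

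The other 3 members had a difference below 0. Ak1 differed by -1.99 ± 0.29 (SE, adjusted p = 6.06e-05), with log2 changes of 0.03 in Myc+ cells and 2.02 in cells without Myc+. In Myc+ arrays Ak1 read 0.985 to 11.3, where the added 16 can hide a change as well. Pltp differed by -0.93 ± 0.28 (SE, adjusted p = 0.0287) and Ppm1d by -0.72 ± 0.22 (SE, adjusted p = 0.0338). When 1 array at a time was left out, Sesn1 lost its call without p53- Rb- Myc+ replicate 2 or 3 or p53- Myc+ replicate 1 or 2 or p53- Rb- replicate 1 or 2 or p53- replicate 1, 2 or 3 (adjusted p = 0.0522 to 0.11). Pltp lost it without p53- Rb- Myc+ replicate 1 or 2 or p53- Myc+ replicate 1 or 3 or p53- Rb- replicate 1 or 3 or p53- replicate 2 or 3 (adjusted p = 0.0506 to 0.0984), Ppm1d without p53- Rb- Myc+ replicate 2 or p53- Myc+ replicate 1 or 3 or p53- Rb- replicate 1, 2 or 3 or p53- replicate 1 (adjusted p = 0.0511 to 0.113) and Polk without p53- replicate 3 (adjusted p = 0.0504). Ak1 lost its call with a pseudocount of 1 (adjusted p = 0.0925).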

How the results depend on the processing

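No call of a member reversed under any alternative: of 180 calls over the 8 comparisons and the difference of the Rb changes, 140 were kept under every alternative and 40 were lost under at least 1. The count of members called in p53- Rb- over p53- cells was 13, became 23 with array weights and ran from 8 to 15 when single arrays were left out, with 8 without p53- Rb- replicate 3. The calls over all genes moved too, with 23.6% lower and 19.1% higher under array weights and 5.32% and 5.21% without that array, against 10.4% and 9.36%. In p53- Rb- Myc+ over p53- Myc+ cells the member count was 7 and ran from 3 to 7 when single arrays were left out. The shares of all genes then ran from 0.983% to 1.2% lower and from 2.27% to 3.15% higher. The cause of these shifts was not tested. The counts of the other 6 comparisons and of the difference of the Rb changes stayed within 1.5 times under every alternative. With single arrays left out they were 20 to 22 in p53- over WT, 12 to 14 in p53- Rb- over WT, 27 to 33 in p53- Myc+ over WT and 28 to 30 in p53- Rb- Myc+ over WT. In the same order, 5.45% to 11.2%, 2.04% to 4.96%, 19.2% to 21.4% and 17.2% to 19% of all genes were then called lower. Called higher were 12% to 19.4%, 6.25% to 10.9%, 20.8% to 22.9% and 21.9% to 25.2%. Quantile normalization moved the median log2 change of all genes in p53- over WT cells to -0.02, against 0.12, and median centring moved that of p53- Myc+ over p53- cells to 0.11, against -0.09.

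With the replicate block the counts were 21 in p53- over WT, 14 in p53- Rb- over WT, 33 in p53- Myc+ over WT, 29 in p53- Rb- Myc+ over WT, 13 in p53- Rb- over p53-, 26 in p53- Myc+ over p53-, 26 in p53- Rb- Myc+ over p53- Rb-, 7 in p53- Rb- Myc+ over p53- Myc+ and 10 for the difference of the Rb changes. Of the 180 calls, only that of Polk in p53- Rb- over WT was lost with the block. Dim members such as Eda2r, and Pmaip1, Perp and Ak1 in Myc+ arrays, have log2 changes whose size depends on the pseudocount.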
